A study of Sus scrofa with 2 samples.

Results

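Genes of the cell cycle, DNA replication and mitosis were examined in biceps femoris muscle of cloned piglets. The members were the 121 genes, of 12535 with reads in either library, whose deposited protein description matched a fixed set of terms: cyclins, cyclin-dependent kinases (CDKs), replication licensing factors, DNA polymerases, DNA topoisomerases, cell division cycle proteins, centromere and kinetochore proteins, condensin, mitotic regulators, aurora kinases and ribonucleotide reductase. The terms also caught genes of other roles, which are named as such where they appear. All the animals were large white piglets made by somatic cell nuclear transfer, delivered by caesarean section and sampled on day 1 after birth. The abnormal cloned group had a developmental failure phenotype, with an enlarged tongue, an inability to stand or walk and an umbilical defect, and the normal cloned group had no such signs. RNA was pooled within each group and sequenced as 1 library per group, from 3 abnormal piglets and from 4 normal piglets by the methods or 3 by the labels. The 3 abnormal piglets and 2 of the normal piglets came from embryonic fibroblasts of a male donor, and the other 2 normal piglets came from ear fibroblasts of another male. Phenotype and donor cells therefore cannot be fully told apart in these pools.

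Cells enter and pass through the cycle when cyclins bind and activate CDKs, and inhibitors such as p21 hold these kinases back. During S phase the MCM helicase opens the DNA, and replicative polymerases copy it with nucleotides supplied by ribonucleotide reductase. In mitosis condensin and topoisomerase II shape the chromosomes, kinetochores attach them to the spindle, and the anaphase-promoting complex triggers their separation. Muscle fibres are multinucleate cells that have left the cycle, while satellite cells, fibroblasts, endothelial and blood cells of a newborn muscle can still divide. Several families named after the cycle have members that act elsewhere, such as the cyclins that drive transcription and the polymerases that act in DNA repair.

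The libraries held 6.38 M (abnormal) and 6.52 M (normal) uniquely mapped reads, of which 36.0% and 46.1% came from mitochondrial transcripts. Reads of 1 library per group have no replicate check, and every p-value below compares these libraries, not the conditions. A gene was called up-regulated or down-regulated in the abnormal cloned group at a false discovery rate (FDR) of at most 0.001 in the two-sided Audic-Claverie test of its reads, with Benjamini-Hochberg adjustment over all 12535 genes, and a log2 ratio of RPKM (reads per kb of transcript and per M of mapped reads) of at least 1 in size. By this rule 12% of all genes passed as up-regulated and 1.45% as down-regulated, and the median log2 ratio of all genes was 0.35. A rescaling by the median ratio of the 7493 genes that had 10 or more reads in each library took 0.36 off every log2 ratio, after which 6.48% of all genes passed as up-regulated and 3.97% as down-regulated.

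The members were expressed at low levels in both pools. Their reads summed to 15578 in the abnormal library and to 12875 in the normal library, which was 0.244% and 0.198% of all reads. The median member had 23 reads in the abnormal library (abnormal reads hereafter) and 29 in the normal library (normal reads), and a median RPKM of 2.97 and 2.64. An RPKM of at least 10 was reached by 27 members in the abnormal library and by 26 in the normal one. The highest level was that of CCNG1 (cyclin G1), with an RPKM of 240.2 and 175.95, and its 3577 and 2677 reads made up a large share of all member reads. Reads were absent for 5 members in the abnormal library and for 4 members in the normal one, none of which had more than 3 reads in the other library. At this depth 22 members had fewer reads over both libraries than any called gene, whose smallest total was 13, so a difference at these members was not detectable.

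In the abnormal cloned group 11 of the 121 members were up-regulated and 8 down-regulated. These were 9.09% and 6.61% of the members, beside 12% and 1.45% of all genes. The log2 ratio was above 0 in 68 members and below 0 in 53, so that 56.2% of the members but 66.0% of all genes were higher in the abnormal cloned group. The median log2 ratio of the members was 0.07, or 0.11 among the 101 members with at least 10 reads over both libraries. After the median-ratio rescaling 4 members were up-regulated and 11 down-regulated, which was 3.31% and 9.09% of the members, their median was -0.29, and 48 were higher and 73 lower. The rescaling lowers every ratio, so it could only add to the calls of down-regulation and take from those of up-regulation, of which 7 were lost (CDKN1A, CDC27, PAPD7, POLM, REV3L, CCNC and CCNL2). With edgeR's exact test and a biological variation of 0.2 assumed between pools, CDC14A and CENPF alone kept their call among the 19, and with 0.4 assumed none of the 19 did. In bulk RNA fewer dividing cells and less of these RNAs per cell cannot be told apart. The members nearest to the log2 threshold were PAPD7 (1.10) and POLD1 (-1.12) inside it, and CCNK (0.86) and MCM4 (-0.94) outside it with an FDR of 4.54e-07 and 4.08e-04 in the Audic-Claverie test.

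**Figure D1:**
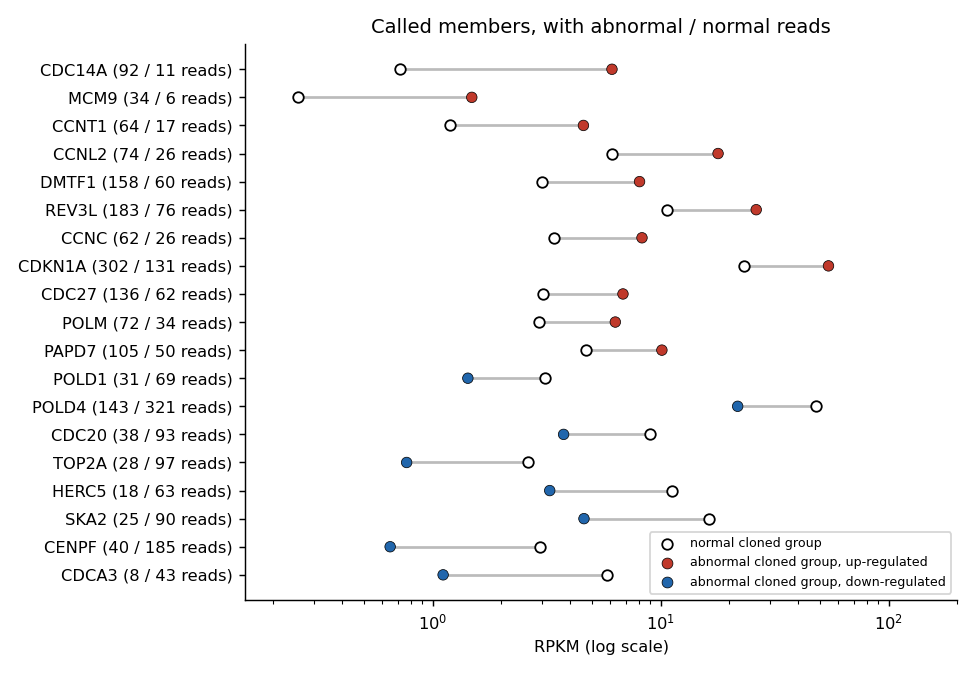
RPKM (x axis, log scale) of the 19 called members in the normal (open points) and abnormal (filled points) cloned groups, with the reads of each library beside the name. The filled point lies to the right for 11 members and to the left for 8, and CDC14A has the widest gap with 92 reads against 11.

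The cyclins that move the cycle forward mostly had ratios below 0, and none of them was called. The terms matched 8 named genes of cyclins A, B, D and E and an entry described as similar to cyclin B2, which had 1 and 0 reads. The 7 genes with at least 10 reads over both libraries had a log2 ratio below 0, and the 8 named genes together had 157 abnormal and 225 normal reads in sum and a median log2 ratio of -0.45. CCNB2, the mitotic cyclin B2, had 8 abnormal and 19 normal reads, and its log2 ratio of -1.22 had an FDR of 0.104 in the Audic-Claverie test. CCNA2, the S phase and G2 cyclin A2, had 17 and 31 reads (-0.84). The G1 cyclins were closer to equality. CCND3 had 70 and 94 reads (-0.39), CCND2 19 and 25 (-0.36), CCNE1 23 and 29 (-0.30) and CCNE2 11 and 13 (-0.21). CCNB3, a cyclin best known from germ cells, had 9 and 13 reads (-0.50), and CCNA1 had 0 and 1 read. The interval of the log2 ratio from counting error (95% Wilson) included 0 for the others with reads in both libraries, but not for CCNB2. The 7 genes were also below 0 after a correction for transcript length.

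The cyclins G, I and J, which are not switched on and off with the cycle in the same way, lay in the other direction. CCNG1, a p53 target, was above its normal level by a log2 ratio of 0.45 (FDR 5.64e-33 in the Audic-Claverie test), which is under the fold required for a call. CCNI had 995 abnormal and 589 normal reads (0.79), CCNJ had 33 and 11 (1.62), and CCNG2 had 50 and 50 (0.03). None of the 4 was called, and the median of the 4 was 0.62. CCNG2 lay below 0 after the median-ratio rescaling. The grouping of cyclins by type was made after the values were seen and was not tested.

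Among the CDK inhibitors, CDKN1A was the called member. CDKN1A encodes p21, which binds cyclin-CDK complexes and is induced by p53 and during muscle differentiation. It had 302 abnormal and 131 normal reads, an RPKM of 54.4 and 23.1, and lies on the plus strand at chr7:36987622-36995484 of Sscrofa9. The log2 ratio was 1.24 (95% interval 0.94 to 1.53, FDR 2.71e-16 in the Audic-Claverie test), and after the median-ratio rescaling it was 0.88, below the fold required. The INK4 inhibitors of CDK4 and CDK6 stayed close to equality or had almost no reads. CDKN2C had 42 and 44 reads, CDKN2D had 22 and 29, and CDKN2B had 0 and 1. CDKN3, a phosphatase that dephosphorylates CDK2, had 18 and 5 reads and an FDR of 0.0285, so it was not called. Entries of CDKN1B, CDKN1C, CDK2, CDK4 and CDK6 were not among the matches and were not analysed here.

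CDK1, the kinase of mitotic entry, had 3 abnormal and 0 normal reads, both at or under the 3 reads taken as the limit of detection, and no fold is given. The kinases CDKL1, CDKL2 and CDKL3, which resemble CDKs in sequence, had between 1 and 17 reads in each library. CDK2AP1 and CDK2AP2, which bind CDK2, had 265 and 268 reads and 116 and 88 reads. CINP, a protein of replication origins that interacts with CDK2, had 92 and 120 reads (-0.35). An entry similar to CKS1, the small subunit that binds CDKs, had 6 and 20 reads (-1.71, FDR 0.0225). None of the 11 members of this group was called.

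Cyclins and CDKs whose known work is in transcription and splicing had the highest median log2 ratio of the roles (1.28). Of 7 genes of this kind, a set that adds CDK11 and CDK13 to the 5 cyclins of the role, 6 were higher in the abnormal cloned group and 3 were up-regulated, and the median log2 ratio was 0.86. Of all genes 66.0% were higher and 12% up-regulated, with a median of 0.35. The set of 7 was made after the values were seen and was not tested. CCNT1, which with CDK9 forms the factor that releases paused RNA polymerase II, had 64 abnormal and 17 normal reads (1.94, interval 1.18 to 2.71, FDR 5.75e-07 in the Audic-Claverie test). CCNL2, a cyclin of splicing factors, had 74 and 26 reads (1.54), and its deposited transcript is 651 bases long. CCNC, the cyclin of the Mediator kinase module, had 62 and 26 reads (1.28). CCNT1 kept its call after the median-ratio rescaling, and CCNL2 and CCNC lost it at log2 ratios of 1.18 and 0.93. CCNK, a partner of the elongation kinases CDK12 and CDK13, had 221 and 124 reads, CCNH, the partner of CDK7, had 164 and 101 (0.73), and CDK13 had 246 and 160 (0.65). CDK11, the splicing kinase that pairs with cyclin L, had 281 and 305 reads (-0.09).

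**Figure D2:**
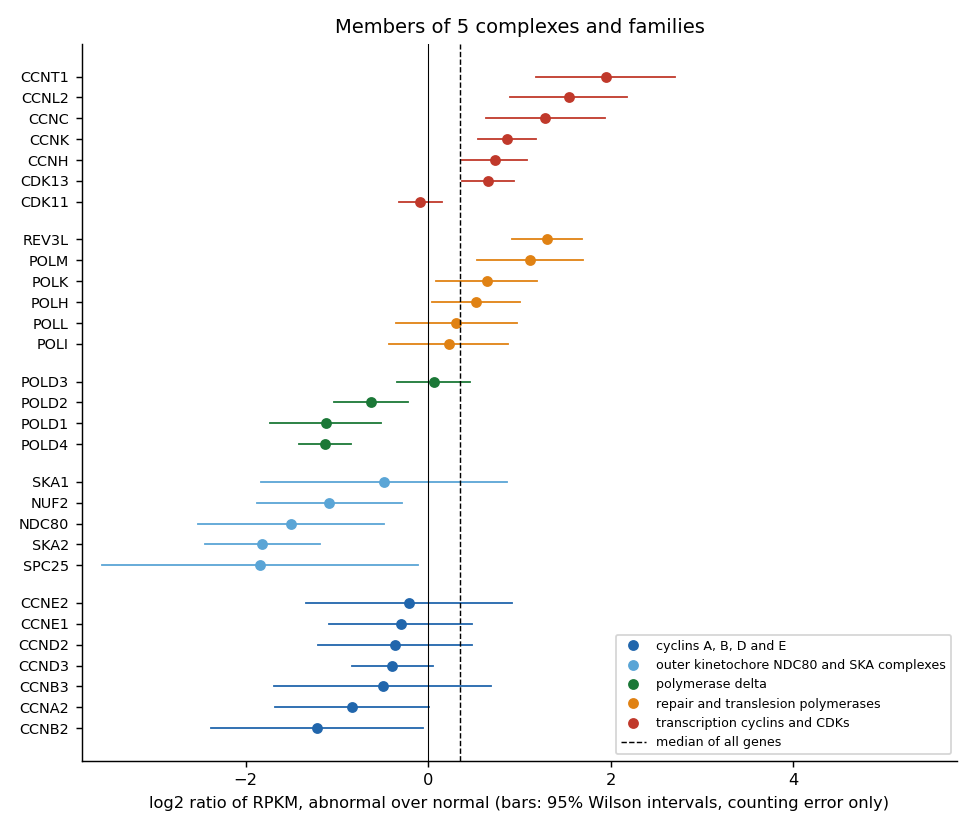
Log2 of the abnormal over the normal RPKM (x axis), of members of 5 complexes and families with reads in both libraries, with 95% Wilson intervals that cover counting error only. The cyclins A, B, D and E and the NDC80 and SKA subunits all lie below 0, polymerase delta lies below 0 except POLD3 (0.06), the repair polymerases lie above 0, and the transcription cyclins and CDKs lie above 0 except CDK11 (-0.09).

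The DNA polymerases had ratios of both signs, and most were not called. Of the 4 matched subunits of polymerase delta, which copies the lagging strand, 3 had a ratio below 0. POLD4, its small accessory subunit (Sscrofa9 chr2:3562263-3564074), had 143 abnormal and 321 normal reads (-1.14, interval -1.42 to -0.85, FDR 5.60e-15 in the Audic-Claverie test). POLD1, the catalytic subunit (chr6:39000770-39015171), had 31 and 69 reads (-1.12, FDR 8.74e-04). Both were down-regulated, POLD4 was no longer called after the correction for transcript length, and POLD1 was no longer called in Fisher's exact test or with 1 added to the RPKM. POLD2 had 79 and 125 reads (-0.63), and POLD3 had 101 and 99 (0.06). Together the 4 subunits had 354 and 614 reads.

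Of the 4 matched subunits of the other replicative polymerases 3 had a ratio above 0. POLA1, the catalytic subunit of the polymerase alpha-primase, had 11 and 4 reads, and POLA2 had 78 and 63 (0.34). Of polymerase epsilon, which copies the leading strand, POLE3 had 164 and 117 reads (0.52) and POLE2 had 8 and 11 (-0.43). None of the 4 was called, and after the median-ratio rescaling 2 were above 0 and 2 below 0.

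The 6 matched catalytic polymerases of translesion synthesis and repair were all higher, with 482 abnormal and 279 normal reads in sum. Beside them, 66.0% of all genes were higher and 12% up-regulated, with a median log2 ratio of 0.35. POLI (0.22) and POLL (0.31) lay under that median. The 6 were grouped after the values were seen, and the group was not tested. REV3L, the catalytic subunit of polymerase zeta, had 183 and 76 reads (1.30, FDR 7.25e-11 in the Audic-Claverie test), on a deposited transcript of 1095 bases that is short for this long gene. MAD2L2, an accessory subunit of polymerase zeta that matched as a spindle checkpoint protein, was not among the 6. It was lower, with 51 and 61 reads (-0.23), and was not called. POLM, the polymerase mu of end joining, had 72 and 34 reads (1.11, FDR 8.11e-04). No call was made for the others: POLK had 64 and 42 reads, POLH 83 and 59, POLL 40 and 33, and POLI 40 and 35. After the median-ratio rescaling 4 of the 6 were above 0 and neither REV3L nor POLM was called. POLG, the polymerase of the mitochondrial genome, had 313 and 197 reads (0.70). PAPD7, which matched through an older name as a DNA polymerase but acts on RNA tails, was up-regulated with 105 and 50 reads.

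Among the licensing helicases 1 of 4 entries, MCM9, was called. MCM4, a subunit of the replicative MCM2-7 helicase, had 52 abnormal and 102 normal reads (-0.94), just under the fold required, and was called down-regulated after the median-ratio rescaling. An entry described like MCM2 had 7 and 9 reads, and its deposited symbol (MCM7) and its RefSeq name (MCM2) do not match. MCM8 and MCM9 form a helicase used in recombination repair. MCM8 had 82 and 44 reads (0.93), and MCM9 was up-regulated with 34 and 6 reads (2.53, interval 1.32 to 3.75, FDR 3.32e-05 in the Audic-Claverie test), which covered 36.3% and 5.42% of its transcript. MCM9 kept its call after the median-ratio rescaling, but not with TMM scaling or with 1 added to the RPKM. RRM1, the large subunit of ribonucleotide reductase, had 263 and 217 reads (0.31), and RRM2B, the p53-induced subunit, had 11 and 6. An entry described like RRM2, the S phase subunit, was named from that description alone. It had 2 and 2 reads, under the 3 reads taken as the limit of detection. CDC6, a loading factor of the helicase, had 5 and 9 reads, and CDC45, which activates it, had 23 and 34.

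Of the topoisomerases, TOP2A was the called member. TOP2A is the isoform of dividing cells that untangles sister chromosomes, and it had 28 abnormal and 97 normal reads (-1.76, interval -2.36 to -1.16, FDR 4.75e-09 in the Audic-Claverie test). Those reads covered 7.11% and 8.25% of its 5721 bases, so they came from a small stretch of the transcript in both libraries. TOP2B, the isoform of non-dividing cells, had 952 and 618 reads (0.65). TOP1 had 681 and 798 reads (-0.20), TOP3B 85 and 62, and the mitochondrial TOP1MT 6 and 6. The isoforms TOP2A and TOP2B thus lay on opposite sides of 0, also after the median-ratio rescaling.

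Centromere, kinetochore and condensin proteins had 30 entries, of which 13 were higher and 17 lower, and the median was -0.14. Both called members were down-regulated. CENPF, a large kinetochore-associated protein that accumulates in G2 and mitosis (minus strand, Sscrofa9 chr9:121314064-121377725), had 40 abnormal and 185 normal reads, covering 17.4% and 52.4% of its 9655 bases. Its log2 ratio was -2.18 (interval -2.67 to -1.69) with an FDR of 9.61e-22 in the Audic-Claverie test. SKA2, a subunit of the complex that holds kinetochores on microtubule ends (chr12:33436469-33451476), had 25 and 90 reads (-1.82, FDR 8.77e-09). After the median-ratio rescaling NDC80 and NCAPG were called down-regulated as well.

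Within this group the outer kinetochore was the low end. The 5 matched subunits of the NDC80 and SKA complexes, which bind microtubules, were all lower in the abnormal cloned group, with 63 reads summed against 179. NDC80 had 10 and 29 reads (-1.51), NUF2 18 and 39 (-1.08), SPC25 3 and 11 (-1.84) and SKA1 7 and 10 (-0.48), and SKA2 was called among the 5. The matched inner centromere proteins, which sit on the chromatin through the whole cycle, had ratios of both signs. Of 9 genes 4 were higher and 5 lower, with 130 and 129 reads summed. CENPC, which anchors the kinetochore, had 45 and 48 reads, CENPT 12 and 20, and CENPP 21 and 7. The inner centromere genes CENPU and CENPA, which the terms did not match, were lower. CENPU had 19 and 45 reads (-1.21) and was called down-regulated after the median-ratio rescaling, and CENPA had 1 and 5 reads. The connecting MIS12 complex and the ZW10 complex had 3 of 4 genes higher, among them ZW10 with 195 and 142 reads (0.49) and KNTC1 with 2 and 2 (0.03). After the median-ratio rescaling 2 of these 4 were higher and 2 lower. Of the 9 matched inner centromere genes 1 was then higher and 8 lower.

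Condensin subunits had ratios of both signs. NCAPG had 23 and 50 reads (-1.09, FDR 0.00748 in the Audic-Claverie test), while NCAPD2 had 126 and 142 (-0.14) and NCAPH2 had 118 and 106 (0.19). NCAPG and NCAPD2 belong to condensin I and NCAPH2 to condensin II. Of the 30 entries of the group 21 had at least 10 reads over both libraries, and the ratios of the others carry wide counting error. Several genes, among them CENPC, were split over more than 1 deposited transcript.

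**Figure D3:**
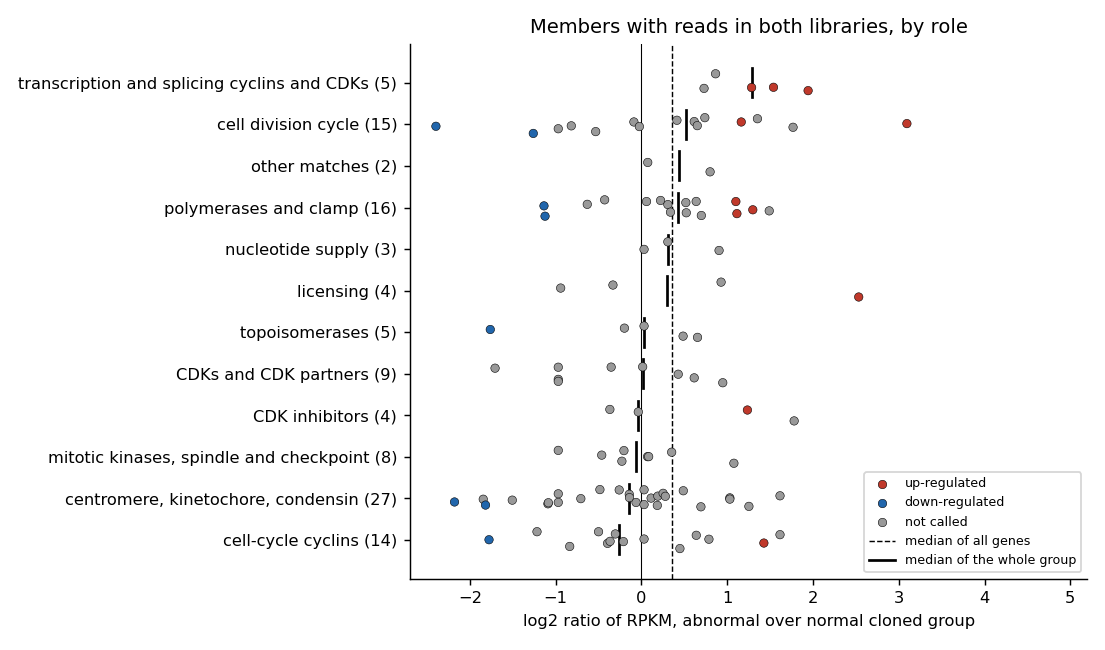
Log2 of the abnormal over the normal RPKM (x axis), of each member with reads in both libraries, by role (number drawn in parentheses). Short lines mark the median of all members of a role, those not drawn included, and the dashed line marks the median of all genes at 0.35. The transcription and splicing cyclins all lie to the right of the dashed line, and the cell-cycle cyclins have the lowest median at -0.26. That role also holds cyclins G, I and J and the cyclin-binding proteins HERC5, DMTF1 and CCNDBP1, and its called points are HERC5 and DMTF1.

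The mitotic kinases, spindle and checkpoint proteins had no called member among 8. AURKA, the kinase that matures the spindle poles, had 16 abnormal and 32 normal reads (-0.97). The spindle checkpoint genes BUB3 (286 and 278 reads), BUB1B (17 and 20) and MAD2L1 (20 and 16) were within their counting intervals of equality. NUMA1, which organises spindle poles and is a nuclear matrix protein between divisions, had 1067 and 1028 reads (0.08). MZT1 and MZT2B, which bind the microtubule-nucleating gamma-tubulin complex, had 31 and 15 reads and 103 and 145 reads.

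Among the called members, the lowest and the highest log2 ratio belonged to cell division cycle proteins. CDC14A, a phosphatase that reverses CDK phosphorylation (minus strand, Sscrofa9 chr4:122529360-122721192), had 92 abnormal and 11 normal reads, covering 75.9% and 21.5% of its transcript. Its RPKM was 8.55 times higher in the abnormal cloned group (log2 ratio 3.10, interval 2.21 to 3.98, FDR 2.65e-16 in the Audic-Claverie test). CDCA3, which promotes mitotic entry through the breakdown of WEE1 (chr5:59889344-59891707), had 8 and 43 reads and the lowest ratio of the called members (-2.40, interval -3.46 to -1.33, FDR 3.70e-06). The anaphase-promoting complex showed values of both signs. CDC20, its mitotic activator, was down-regulated with 38 and 93 reads (-1.26, FDR 1.26e-05), whereas the core subunit CDC27 was up-regulated with 136 and 62 reads (1.16, FDR 4.60e-07) and the core subunit CDC23 had 67 and 41 (0.74). CDCA2, which acts on chromosomes at the end of mitosis, had 7 and 14 reads.

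Other matches of the terms have known roles apart from the cycle engine. DMTF1, a cyclin D-binding transcription factor that activates the ARF tumour suppressor, was up-regulated with 158 and 60 reads (1.43, FDR 7.88e-11 in the Audic-Claverie test). HERC5, matched as a cyclin E-binding protein and known as the ligase of the interferon-induced modifier ISG15, was down-regulated with 18 and 63 reads (-1.78). CACYBP, a calcyclin-binding protein of ubiquitination, had 1151 and 675 reads (0.80). CDC42, a GTPase of cell shape, had 10 and 3 reads, CDC123, a factor in the assembly of a translation initiation complex, had 493 and 378 (0.41), and CCAR1, a transcription coactivator, had 365 and 379. CCNQ, a partner of CDK10, had 34 and 33.

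The members were also described by lists commonly used to score S phase and G2/M phase in single cells. These lists were chosen after the values were seen and were not tested. Of the 11 members in the G2/M list (CDCA3, CENPF, TOP2A, NDC80, CDC20, CCNB2, NUF2, AURKA, CDCA2, NCAPD2 and CDK1) 10 were lower in the abnormal cloned group and 4 were down-regulated, with a median log2 ratio of -1.22 and 302 reads summed against 693. CDK1, with its 3 and 0 reads, was the exception. Of the 9 members in the S phase list 5 were higher and 4 lower, none was called, and their reads summed to 478 and 484. Those 5 include POLD3 (0.06) and an entry described like RRM2 (0.03), which were near equality. After the median-ratio rescaling 2 of the 9 were higher and 7 lower, and MCM4 was down-regulated. The 101 members in neither list had 62 higher and 39 lower, with 11 up-regulated, 4 down-regulated and a median of 0.22. Beside these counts, 12% of all genes were up-regulated and 1.45% down-regulated. Outside the members, 19 of 25 S phase entries and 20 of 32 G2/M entries were lower in the abnormal cloned group. Their median log2 ratios were -0.62 and -0.51. Among these entries UBR7, TUBB4B and an entry named CKAP5 were up-regulated, and ATAD2, CASP8AP2 and CKS2 were down-regulated.

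**Figure D4:**
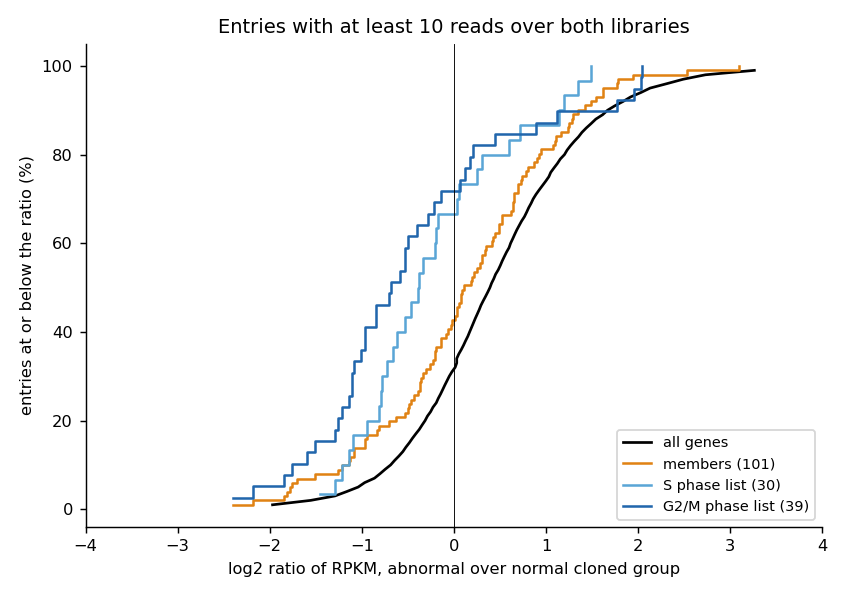
Cumulative share of entries (y axis, percent) at or below each log2 of the abnormal over the normal RPKM (x axis), for entries with at least 10 reads over both libraries: all genes, the 101 members, and the entries of the S phase (30) and G2/M (39) lists, members included. The member curve lies to the left of that of all genes over most of its range, and the curves of both phase lists lie further to the left over most of theirs.

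Genes of the cycle that the terms did not match were examined as a companion list of 117 genes, of which 77 were listed. Of these 39 had a ratio above 0 and 38 below 0, 5 were up-regulated and 2 down-regulated, and the median log2 ratio was 0.02. Thus 50.6% of the list was higher, beside 66.0% of all genes, of which 12% were up-regulated, 1.45% were down-regulated and the median was 0.35. BTG2, an antiproliferative gene induced by p53, had 397 abnormal and 101 normal reads (2.01). LIN54, a DNA-binding subunit of the complex that represses cycle genes in resting cells, had 110 and 31 (1.86), SKP2, which targets CDK inhibitors for breakdown, had 44 and 13 (1.79), RB1, the retinoblastoma protein, had 235 and 81 (1.57), and MYC had 434 and 207 (1.10). The down-regulated genes were SMC2, the core ATPase of condensin, with 12 and 45 reads (-1.88), and CKS2, a CDK-binding subunit, with 39 and 86 (-1.11). After the median-ratio rescaling 3 genes were up-regulated (RB1, LIN54 and BTG2) and 8 were down-regulated (SMC2, CKS2, PTTG1, KIF20A, RNASEH2A, UBE2C, LIG1 and SMC4).

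The deposited tables label an entry as antigen KI-67, which is NIFK, a protein that binds this antigen, in RefSeq. It had 544 and 313 reads (0.83) on 1023 bases and was left out of the companion list. Entries of PLK1, STMN1 and GADD45A were not matched and were not analysed here.

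Markers of the cell types that a muscle sample can hold were summed beside these values, and their part in the results was not tested. The muscle fibre markers (4 of 8 listed) had a summed RPKM of 45230 (abnormal) and 41415 (normal), a difference carried by ACTA1, skeletal actin, with 431743 abnormal and 390261 normal reads. The other 3 listed fibre markers were lower in the abnormal library, and the slow myosin MYH7, with 120 reads against 1407, was down-regulated. The myoblast markers MYF5, MYOD1 and MYOG (3 of 6 listed) were each higher, with 190.4 against 140.5, and none was called. Their log2 ratios were 0.75, 0.50 and 0.42, beside the median of all genes of 0.35. After the median-ratio rescaling they were 0.39, 0.14 and 0.06. The fibroblast markers (5 of 6) summed to 1358 and 1510, and the endothelial markers (4 of 5) to 44.1 and 41.8. Macrophage markers (4 of 5) summed to 13.5 and 18.98, with 1 higher and 3 lower. Lymphocyte markers (5 of 6) summed to 1.90 and 3.07, with 2 higher and 3 lower. PTPRC, the pan-leukocyte antigen, had 5 and 22 reads, CD79A 8 and 8, CD3E 2 and 3, CD8A 0 and 2, and CD3D 1 and 0. The counts of CD3E, CD8A and CD3D were at or under the 3 reads taken as the limit of detection. The red blood cell lineage markers (5 of 7) summed to 481 and 694, of which HBB made up nearly all. Adipocyte markers (2 of 4) summed to 0.381 and 0, with LEP at 1 and 0 reads.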

How the data were processed

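RNA-seq of 1 pooled library per group was analysed. The authors filtered reads with adaptors, more than 10% unknown bases or more than 50% bases of low quality, mapped them to Sscrofa9 transcripts with SOAPaligner/soap2 allowing 2 mismatches, and kept uniquely mapped reads. The deposited counts are these reads per transcript, not normalized. The deposited RPKM values are the counts by the authors per kb of transcript and per M of unique reads, and the authors gave the percent of each transcript that reads covered. Protein descriptions, transcript lengths and coordinates were taken as deposited. Transcripts absent from a table were taken as 0 reads.

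The tables were joined on the gene identifier, and members were found by matching terms to the protein description. The members and lists were chosen with earlier results of these data known, and the subgroups by complex and the phase lists were set after the values were seen, so nothing is supported by their choice. Of the 121 members 96 had Entrez and 25 Ensembl identifiers. Names came from the deposited symbol (40), RefSeq (31), a symbol table (14) or the description (29), and 7 had none. The values of 1 member are not reported here. RefSeq describes Sscrofa11.1, so none of its coordinates were used.

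Log2 ratios were those of the RPKM, abnormal over normal, with 0 set to 0.001. Reads were tested by the Audic-Claverie test, two-sided by doubling, with Benjamini-Hochberg adjustment over 12535 genes. Intervals (95%, Wilson) were computed on the fraction of reads from the abnormal library and hold counting error alone, and 3 reads (0.470 RPM abnormal, 0.460 RPM normal) were taken as the limit of detection. With 1 library per group no replicate model could be fitted. In data simulated for abnormal over normal with counting noise only, 168 of 200 changed genes among 12064 were recovered, with 0 false calls. The changed genes were drawn from those with at least 10 expected reads, and their changes were larger than the log2 threshold. The share recovered therefore does not describe genes with fewer reads or with ratios near the threshold. Named genes were all called members, the 2 members with the most reads of each role, a fixed list of core genes and the members at the threshold; other genes were named within subgroups after their values were seen.

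Alternatives were median-ratio and TMM scaling, totals without the 20 most abundant or without mitochondrial transcripts, the exact test of Fisher, that of edgeR with an assumed variation of 0.2 or 0.4, 1 added to the RPKM, at least 10 reads in both libraries, an FDR of 0.05 and a length correction. Python 3.11.15, scipy 1.17.1, R 4.3.3 and edgeR 4.0.16 were used.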

Additional observations from a re-analysis of the deposited data

How the results depend on the processing

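No paired analysis was possible because each group has 1 library. The members up-regulated and down-regulated, 11 and 8 as reported, were 4 and 11 under the median-ratio rescaling, 3 and 13 with TMM scaling, 5 and 10 with totals without the 20 most abundant transcripts, and 6 and 10 with totals without mitochondrial transcripts, an alternative chosen after seeing the data. Under these 4 scalings the median log2 ratio of the members turned from 0.07 to -0.29, -0.32, -0.24 and -0.18, and the share of members higher in the abnormal cloned group was 39.7%, 39.7%, 43.0% and 44.6%. The companion genes up-regulated and down-regulated were 3 and 8, 3 and 8, 3 and 6, and 3 and 6. Each of the 4 lowers every ratio, so the calls of down-regulation could not be lost to them by sign or size, and 4, 3, 5 and 6 of the 11 calls of up-regulation were kept. The calls depended most on the spread assumed between pools, which 1 library per group cannot give. With edgeR's exact test and an assumed variation of 0.2, 1 member was up-regulated (CDC14A) and 1 down-regulated (CENPF), in 2 role groups, beside 1 and 0 companion genes. At an unadjusted p under 0.05 that test had 14 members higher and 10 lower, and 11 companion genes higher and 3 lower. With an assumed variation of 0.4, edgeR called 0 members, 0 role groups and 0 companion genes in either direction, while 3 members were higher and 3 lower, and 3 companion genes higher and 0 lower, at an unadjusted p under 0.05. With 1 added to the RPKM 7 members were up-regulated. An FDR of 0.05 gave 8 and 6 companion genes. The members' median was 0.19 with at least 10 reads in both libraries and 0.15 after the length correction. Genes near equality changed sign under the 4 scalings, in the order above. CDK2AP1 moved to -0.34, -0.38, -0.29 and -0.23, and BUB3 to -0.29, -0.32, -0.24 and -0.18. NUMA1 moved to -0.27, -0.31, -0.22 and -0.16, and CCNQ to -0.29, -0.32, -0.23 and -0.17. The entry described like RRM2, with 2 reads in each library, moved to -0.33, -0.36, -0.28 and -0.22. RRM1 changed to -0.051 and -0.085 under the first and second. After the length correction NUMA1 was at -0.25 and CDKN2C at 0.17. Fewer than 13 reads over both libraries, as in 22 members, allowed no call.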

Other observations

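Entries of the phase lists that were not members, some of which are also in the companion list, were examined as values. Outside the members, the S phase list had 25 entries, of which 6 had a ratio above 0 and 19 below 0, with a median log2 ratio of -0.62. ATAD2, a chromatin ATPase of proliferating cells, had 43 abnormal and 97 normal reads (-1.14), and CASP8AP2, needed for histone gene expression, had 40 and 87 (-1.09); both were down-regulated. UBR7 was the S phase entry up-regulated, with 90 and 40 reads (1.20). The G2/M list had 32 entries outside the members, of which 12 were higher and 20 lower, with a median of -0.51. TUBB4B, a beta-tubulin also used outside mitosis, was up-regulated with 527 and 248 reads (1.12), and CKS2 was the entry down-regulated.

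Separate deposited entries carry the name CKAP5, a microtubule polymerase of the spindle, on opposite strands and with overlapping positions, so at most 1 of them can be a transcript of that gene. The longer, of 6680 bases, had 125 and 31 reads (2.04) and was up-regulated, and the shorter, of 3035 bases, had 17 and 16 reads (0.12) over under 3% of its length in both libraries.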
